A study of Arabidopsis thaliana with 18 samples.

Results

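The F1 hybrid C24 x Ler was compared with Ler NahG plants, which are of a parental accession and carry a transgene that degrades salicylic acid. The libraries were chosen by their labels as the 3 libraries of C24 x Ler and the 3 of Ler NahG, 6 of the 18 in the series, and the genes were all rows with an Arabidopsis locus identifier. Of 20325 genes with enough reads to test, 5331 (26.2%) differed between the groups, 2724 (13.4%) higher and 2607 (12.8%) lower in the hybrid. A gene was counted as different at a Benjamini-Hochberg adjusted p under 0.05 in edgeR's quasi-likelihood test. The genes that depended on salicylate in C24 were mostly higher in the hybrid, and the floral organ and shoot apex markers measured were mostly higher in Ler NahG.

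Rosettes of Arabidopsis thaliana were collected 21 days after sowing from plants raised on medium, moved to soil at day 14 and kept at 21 °C under a day of 16 h light and 8 h dark. Each library was 1 biological replicate made from a pool of 6 to 10 plants, and total RNA was sequenced. The hybrid is labelled wild type, with accession given as Hybrid; Ler NahG is labelled accession Ler-0 with a NahG transgene, and C24 and Ler, with 3 libraries each, are labelled wild type. A later stage held C24B, a second set of wild-type C24, and the independent transgenic lines C24 NahG 2 and C24 NahG 3, with 2 libraries each. The promoter that drives NahG, and the line of Ler NahG, are not given in the sources used here, and the RNA of the transgene was not analysed here. C24 x Ler and Ler NahG differ in a C24 copy of the genome, in being a hybrid or a single accession, and in the transgene. Accession, hybrid state and salicylate loss therefore cannot be told apart in this comparison alone.

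Salicylic acid is a plant hormone made largely in the chloroplast from chorismate, by a route that starts with isochorismate synthase (ICS1). NPR proteins bind it, and NPR1 with TGA and WRKY transcription factors then switches on defence genes, among them the pathogenesis-related genes PR1, PR2 and PR5. It also promotes leaf ageing. NahG is a bacterial salicylate hydroxylase that turns the hormone into catechol, and plants that carry it keep little salicylic acid.

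The 6 libraries held 22581225 to 24144223 reads counted to genes. Levels are given in CPM, which are read counts scaled for sequencing depth and library composition. They compare a gene between libraries and not 1 gene with another. Differences are log2 fold changes of C24 x Ler minus Ler NahG with an approximate SE. The p-values set each difference against the spread between pools of plants, estimated over all 12 libraries of the fit. The SE is the absolute difference divided by the square root of the test's F statistic. Over all genes tested the median difference was -0.0039, and 7814 genes had an unadjusted p under 0.05. Counts of gene list members given below stand beside 13.4% higher and 12.8% lower among all genes tested. Differences of at least 1 on the log2 scale were called for 1052 genes higher and 1528 lower in the hybrid, and of at least 5 for 201 and 257. Whatever the test, all 3 hybrid libraries lay above all 3 of Ler NahG for 4097 genes (20.2%) and below them for 3939 (19.4%). Without C24 x Ler replicate 1 the count of calls fell to 3511, and without Ler replicate 1, of neither compared group, it rose to 6398. Leaving out any other library of the 12 in the fit gave 3905 to 5340.

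Salicylate-dependent genes were taken from the later libraries alone, as the genes called lower in both C24 NahG lines than in C24B. They numbered 1266 (6.29% of 20112 tested there), and 1259 of them could be tested between the hybrid and Ler NahG. Higher in the hybrid were 822 (65.3%, against 13.4% of all genes tested), lower were 38 (3.02%, against 12.8%), and 399 (31.7%) were not called. Among the 19066 other genes 1902 (9.98%) were higher. The set leaned towards C24, as 1111 of the 1259 genes (88.2%) were also higher in C24 than in Ler. Of all 4602 genes higher in C24 than in Ler, 46.5% were higher in the hybrid here. The part of accession in the 65.3% was not tested. The median difference was 0.77 for the salicylate-dependent genes and -0.02 for the others. Of the 174 tested genes that were raised in both C24 NahG lines 32 (18.4%) were higher and 35 (20.1%) lower in the hybrid. The shares over all genes tested were 13.4% and 12.8%, and the median of the 174 was -0.12. Those raised in both lines were 0.875% of the genes tested in the later libraries. The definition rests on 2 libraries a group: it held 556 genes without C24 NahG 3 replicate 2, of which 75.9% were higher, and 1962 without C24B replicate 2, of which 55.6% were higher. Without C24 NahG 2 replicate 1 or 2 or C24 NahG 3 replicate 1 it held 587, 611 and 674 genes.

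**Figure D1:**
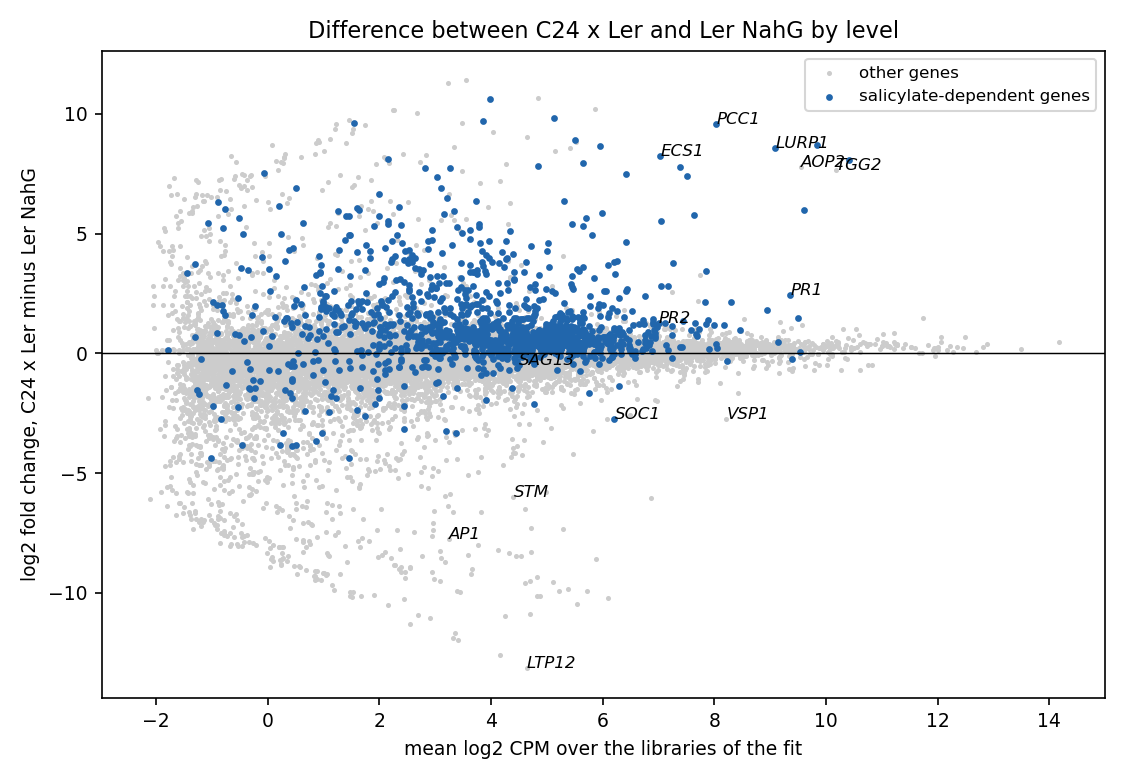
Log2 fold change of C24 x Ler minus Ler NahG (vertical axis) against mean log2 CPM over the 12 libraries of the fit (horizontal axis) for each gene tested; the 1259 salicylate-dependent genes are in blue and the others in grey. The blue points lie mostly above 0, up to WRKY38 at 10.62, and LTP12 is the lowest labelled gene at -13.16. WRKY38 had 0 reads in Ler NahG and LTP12 had 0 in the hybrid, so the size of both values depends on the small count that the fit adds.

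The salicylate-dependent genes stood at intermediate levels in the hybrid. Relative to the C24 mean of the same gene, their median level was 58.2% in C24 x Ler (quartiles 27.3% and 78.4%) and 31.1% in Ler NahG (6.38% and 54.7%). Under 10% of the C24 level lay 146 genes (11.6%) in the hybrid and 369 (29.3%) in Ler NahG. In the other comparisons of the same fit, which share libraries with this one, the median was 0.60 for C24 x Ler minus Ler, 0.20 for Ler minus Ler NahG and -0.78 for C24 x Ler minus C24. Of the 1259 genes 749 were higher in the hybrid than in Ler (15.8% of all genes were), 92 were higher in Ler than in Ler NahG (0.502%), and 910 were lower in the hybrid than in C24 (19.3%). As many as 1111 (88.2%) were higher in C24 than in Ler, against 22.6% of all genes.

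Among the largest rises were defence genes that Ler NahG held near 0. PCC1, a small membrane-associated protein induced by pathogens, stood at 394, 343 and 252 CPM in the hybrid libraries and at 0.247, 0.412 and 0.633 in Ler NahG. LURP1, which is needed for full basal defence against a downy mildew oomycete, read 917, 592 and 443 CPM in the hybrid and 2.06, 1.56 and 1.52 in Ler NahG. No library of one group came near the other for either gene, and the rule that named both admitted only genes without overlap. The log2 differences were 9.56 ± 0.49 (SE, adjusted p = 1.4e-07) for PCC1 and 8.56 ± 0.49 (adjusted p = 3.7e-07) for LURP1. C24 stood above the hybrid in both, at 688 ± 82.7 CPM (SD, n = 3) for PCC1 and 1450 ± 203 for LURP1, and Ler between the hybrid and Ler NahG, at 30.2 ± 16.7 and 83.8 ± 47.5.

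WRKY70, WRKY54 and WRKY38, transcription factors of the salicylate response, were also higher in the hybrid than in Ler NahG. WRKY70 and its close relative WRKY54 act in that response downstream of NPR1. WRKY70 was at 360, 277 and 135 CPM in the hybrid and at 1.2, 1.38 and 1.94 in Ler NahG, a log2 difference of 7.41 ± 0.57 (adjusted p = 3.1e-06). WRKY54 was at 79.8, 66.2 and 47.0 CPM against 0.0824, 0.229 and 0.0844, a difference of 8.90 ± 0.55 (adjusted p = 6e-07), or 9.50 without Ler NahG replicate 2. Replicate 3 of the hybrid was the lowest hybrid library for both genes and still far above each Ler NahG library. The hybrid held 63.6% of the C24 mean for WRKY70 and 61.7% for WRKY54, and neither gene was called between the hybrid and C24 (adjusted p = 0.23 and 0.09). WRKY38, which restrains basal defence in Arabidopsis, had 512 reads over the hybrid libraries, at 9.96, 8.92 and 6.30 CPM, and 0 over those of Ler NahG. That is at least 194-fold higher against a floor of 3 reads over the Ler NahG group, and its adjusted p was 1.9e-06.

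ACD6, ANK and several cell-surface kinases also rose. ACD6, an ankyrin-repeat membrane protein that promotes salicylic acid accumulation, was at 211, 131 and 131 CPM in the hybrid and at 0.536, 0.733 and 0.887 in Ler NahG, a difference of 7.77 ± 0.39 (adjusted p = 1.2e-07). ANK, another ankyrin-repeat protein, stood at 99.2, 65.2 and 68.9 CPM against 0.124, 0.183 and 0.253, a difference of 8.66 ± 0.40 (adjusted p = 5.8e-08). Neither gene overlapped between the groups, as the rule that named them required, and the hybrid held 31.5% and 49.3% of the C24 means. WAK1, a receptor kinase that binds pectin in the cell wall, was at 274, 164 and 184 CPM against 2.64, 3.02 and 5.57, a difference of 5.79 ± 0.33 (adjusted p = 3.4e-07). In the list of cysteine-rich and wall-associated kinases 11 of 18 members rose and 0 fell, with a median of 2.28, and each of the 11 was salicylate-dependent; 1 fell without Ler NahG replicate 2. CRK14 was at 7.96, 5.22 and 5.73 CPM in the hybrid and at or under 0.0916 in Ler NahG, a difference of 6.35 ± 0.34 (adjusted p = 2.1e-07). The CRK genes lie in clusters of close copies, so reads may be split among them.

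ECS1 did not follow C24. This small secreted protein, linked to resistance against a bacterial pathogen, was at 497, 322 and 300 CPM in the hybrid and at 1.44, 0.825 and 1.44 in Ler NahG, with a difference of 8.22 ± 0.41 (adjusted p = 1.2e-07). All 3 hybrid libraries were above those of Ler, with a mean of 132 ± 62.5, and above C24, at 17.8 ± 1.05. The hybrid exceeded Ler by 1.5 on the log2 scale (adjusted p = 0.0026) and C24 by 4.39 (adjusted p = 3.6e-06). Of the 822 salicylate-dependent genes that rose, 803 were also higher in C24 than in Ler, 18 were not called there, and ECS1 was the 1 gene called lower in C24.

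**Figure D2:**
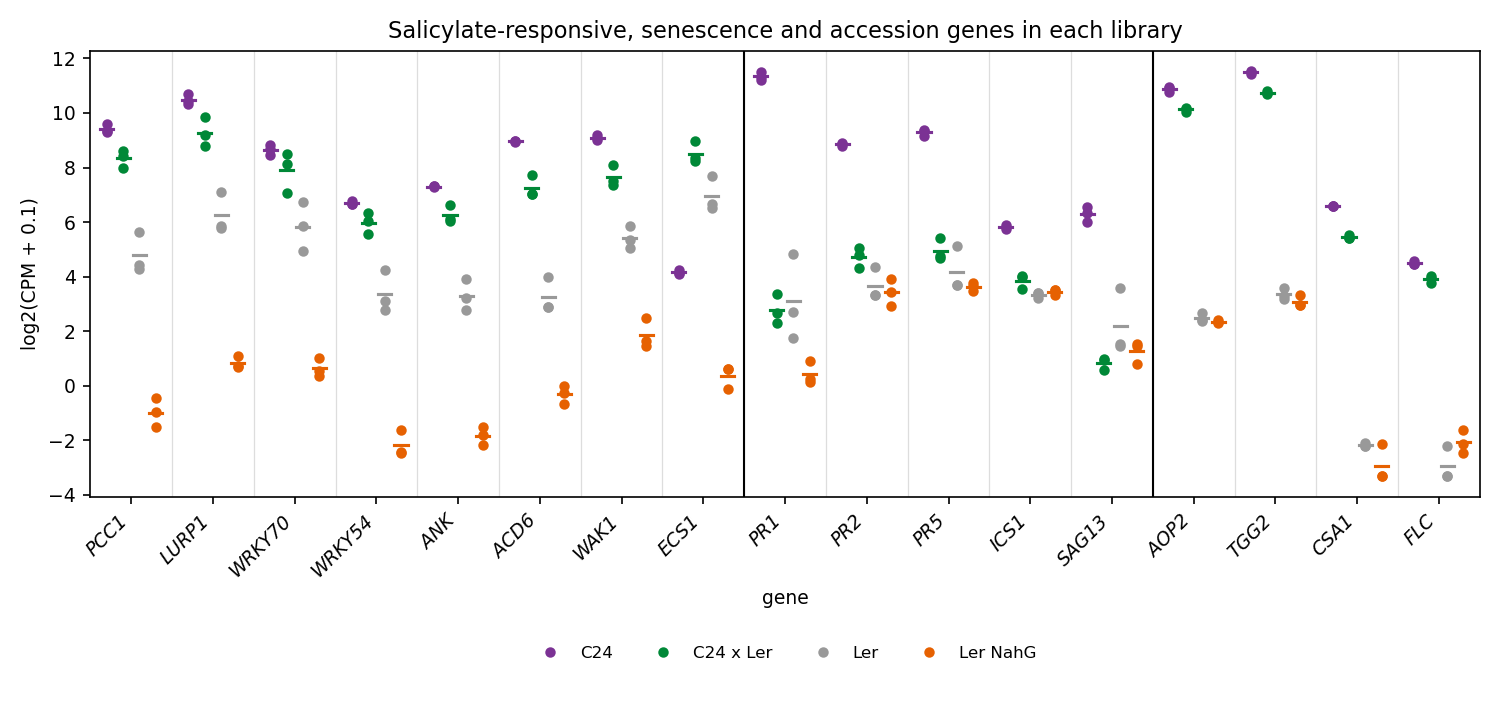
Level of 17 genes as log2(CPM + 0.1) in each library of C24, C24 x Ler, Ler and Ler NahG; points are libraries and bars are the means of the 3 plotted values. In the left block every hybrid library lies above every Ler NahG library and, except for ECS1, near or below C24. In the middle block C24 lies far above the other 3 groups, and in the right block Ler and Ler NahG lie together below C24 and the hybrid.

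The classical markers PR1, PR2 and PR5 were higher in the hybrid than in Ler NahG but far below C24. PR1 encodes a small secreted antimicrobial protein. PR1 was at 6.28, 4.83 and 10.2 CPM in the hybrid and at 0.989, 1.1 and 1.77 in Ler NahG, while C24 held 2604 ± 252 (SD, n = 3). The groups did not overlap and the difference was 2.46 ± 0.74 (adjusted p = 0.031). That call was lost without any 1 of 5 of the 6 compared libraries, with adjusted p = 0.092, 0.075 and 0.059 without Ler NahG replicates 1, 2 and 3 and 0.061 and 0.093 without C24 x Ler replicates 1 and 3. The hybrid held 0.272% of the C24 level of PR1, and it was not called different from Ler (adjusted p = 0.33).

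PR2, a beta-1,3-glucanase, was at 27.7, 19.8 and 33.3 CPM in the hybrid and at 10.7, 7.51 and 14.9 in Ler NahG, a difference of 1.29 ± 0.30 (adjusted p = 0.009). PR5, a thaumatin-like protein, was at 26.9, 25.4 and 42.6 CPM against 13.5, 11 and 12.5, a difference of 1.36 ± 0.35 (adjusted p = 0.014, and 0.054 without C24 x Ler replicate 3). Both were higher in each hybrid library than in any Ler NahG library, yet at 5.84% and 5.04% of the C24 means. ICS1 itself was at 11.6, 15.7 and 16.2 CPM against 11.2, 11.3 and 9.88, a difference of 0.42 ± 0.12 (adjusted p = 0.026), and C24 stood at 56.7 ± 2.95. The ICS1 call was lost without Ler NahG replicate 1 or 3 (adjusted p = 0.052 and 0.094) or C24 x Ler replicate 2 or 3 (0.091 and 0.085). The Ler NahG and Ler levels of ICS1 lay close together, at 10.8 ± 0.799 and 10.0 ± 0.748.

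Across the whole list of 33 salicylic acid response genes 26 were higher and 1 lower in the hybrid, with a median of 3.44. The list overlaps the measured definition, as 32 of its members were salicylate-dependent in C24. NIMIN2, which binds NPR1, was at 8.61 ± 3.05 CPM in the hybrid and 0.215 ± 0.0818 in Ler NahG, and the protease AED1 at 59.0 ± 13.1 against 4.35 ± 0.396. The differences were 5.29 ± 0.50 and 3.76 ± 0.20 (adjusted p = 1.6e-05 and 1.5e-07). MLO12, a membrane protein of the family tied to powdery mildew susceptibility, was the member that fell, by 1.36 ± 0.33 (adjusted p = 0.011). FMO1, which makes the mobile signal N-hydroxypipecolic acid, was at 0.812 CPM in the hybrid and 0.432 in Ler NahG and was not called, whereas its C24 mean was 29.0.

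Genes of salicylic acid synthesis and signalling rose in 14 of 18 cases and fell in 0, or in 1 without Ler replicate 1, Ler NahG replicate 2 or C24 x Ler replicate 3. The largest was SARD1, a transcription factor that activates ICS1, at 14.1, 9.36 and 10.9 CPM in the hybrid and 0.618, 0.733 and 0.633 in Ler NahG, a difference of 4.11 ± 0.39 (adjusted p = 1.7e-05). NPR4, a salicylic acid receptor, stood at 56.8, 55.0 and 47.9 CPM against 12.2, 13.4 and 11.9, a difference of 2.09 ± 0.10 (adjusted p = 9.9e-08). NDR1, a membrane protein required by several immune receptors, was at 29.4, 31.1 and 21.2 CPM against 3.83, 3.44 and 3.46, a difference of 2.93 ± 0.20 (adjusted p = 1.4e-06). The groups were far apart for all 3 genes, and the hybrid reached 82.2% of C24 for NPR4 and 72.4% for NDR1 but 27.3% for SARD1. ICS2, PBS3, EPS1 and CAMTA3 were the members not called.

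Enzymes that modify salicylic acid divided. DMR6, a salicylate hydroxylase, rose from 0.577, 0.596 and 0.380 CPM in Ler NahG to 31.0, 31.5 and 29.5 in the hybrid, a difference of 5.88 ± 0.43 (adjusted p = 2.1e-06). MES9, a methyl salicylate esterase that was not salicylate-dependent by the definition here, was at 9.75, 8.92 and 6.25 CPM against 0.494, 0.733 and 0.802, a difference of 3.61 ± 0.31 (adjusted p = 7.7e-06). BSMT1, the methyltransferase that makes methyl salicylate, went the other way, with 0 reads in the hybrid and 205 in Ler NahG, at least 60.1-fold lower in the hybrid against the floor of 3 reads over the group. BSMT1 was also called lower in C24 than in Ler, and DMR6 and MES9 were called higher in C24 than in Ler. In all, 3 of the 11 genes of this list were higher, 1 lower and 7 not called. Of all genes tested 13.4% were higher and 12.8% lower.

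Promoter sequences are shown for PCC1, LURP1 and WRKY70, which the hybrid held at 44.9% to 63.6% of the C24 level. The windows are the 250 bases upstream of the annotated start, from the RefSeq copy of the TAIR10.1 reference, which is of another accession than C24 or Ler, so changes in these plants are not seen. Capitals mark TTGAC, the W-box core to which WRKY factors bind, and TGACG, the core of TGA-factor sites, on either strand. The 2 motifs overlap in TTGACG.
LURP1: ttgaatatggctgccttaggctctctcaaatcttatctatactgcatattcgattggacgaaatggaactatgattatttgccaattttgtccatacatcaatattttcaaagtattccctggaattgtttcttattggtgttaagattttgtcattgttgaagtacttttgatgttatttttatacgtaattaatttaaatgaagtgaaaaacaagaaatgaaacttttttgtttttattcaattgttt
PCC1: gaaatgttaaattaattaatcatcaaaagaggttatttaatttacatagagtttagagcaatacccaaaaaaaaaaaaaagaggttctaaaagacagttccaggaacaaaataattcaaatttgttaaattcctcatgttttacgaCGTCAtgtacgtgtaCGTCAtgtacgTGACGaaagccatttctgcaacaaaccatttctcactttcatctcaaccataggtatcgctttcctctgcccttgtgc
WRKY70: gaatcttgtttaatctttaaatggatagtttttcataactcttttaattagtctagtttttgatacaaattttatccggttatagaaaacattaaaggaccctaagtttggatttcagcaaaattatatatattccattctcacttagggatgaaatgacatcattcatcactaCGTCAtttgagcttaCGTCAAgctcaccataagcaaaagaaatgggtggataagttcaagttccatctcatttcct
The windows are chr2:6213367-6213616 on the plus strand for LURP1, and chr3:7846834-7847083 and chr3:20910624-20910873 on the minus strand for PCC1 and WRKY70. The LURP1 window held 0 matches, that of PCC1 3 of TGACG, and that of WRKY70 1 of TTGAC and 2 of TGACG with 1 TTGACG among them.

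In windows from 250 bases before to 50 after the start, TTGAC was present in 556 of 808 salicylate-dependent genes that rose in the hybrid (68.8%). It was in 286 of 431 salicylate-dependent genes that were not called higher (66.4%), in 54.0% of other genes that rose, and in 50.5% of 27443 protein-coding genes. TGACG was present in 28.7%, 31.3%, 24.2% and 23.1% of those sets. These are counts of letters, differences between the sets were not tested, and binding was not measured.

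Immune receptors were higher in the hybrid, with some at 0 or near it in Ler NahG. Of 17 measured intracellular receptors 14 rose and 0 fell, with a median of 1.04. CSA1 and CHS3, neighbouring genes for receptors that act as a pair, were at 45.8, 42.7 and 42.2 CPM and at 20.7, 17.0 and 24.4 in the hybrid. Ler NahG had 3 reads of CSA1 and 2 of CHS3 over its libraries, which gave ratios of 1010 (95% exact counting interval 346 to 4910) and 723 (200 to 5980). Ler was just as low, at 0.124 and 0.0809 CPM, and C24 was at 96.2 ± 0.470 and 44.3 ± 2.1. CRK4, a cysteine-rich receptor kinase, had 674 reads in the hybrid and 3 in Ler NahG, a ratio of 255 (87.0 to 1240). The adjusted p was 1.7e-09 for CSA1, 1.2e-08 for CHS3 and 1e-06 for CRK4. All reads of the 3 genes in Ler NahG were in replicate 3, without which the log2 differences were 12.99, 11.92 and 11.01. Those values are against 0 reads, so their size depends on the small count that the fit adds. Reads were counted against a reference of another accession, so a missing gene and a diverged copy in Ler cannot be told apart.

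CSA1 and CRK4 met the definition of salicylate dependence as well as lying near 0 in both Ler groups. In the later libraries CSA1 averaged 119 CPM in C24B and 69.3 and 61.1 in the NahG lines, and CRK4 98.7 against 1.23 and 0.747. CHS3 did not meet it, at 51.0 against 41.4 and 39.0. SNC1, a receptor gene of a highly copied cluster, stood at 135, 112 and 158 CPM in the hybrid and 23.6, 29.5 and 23.9 in Ler NahG, a difference of 2.39 ± 0.15 (adjusted p = 7.5e-07). RPM1 showed the reverse origin, with 0 reads in C24 and 10.3 ± 0.971 CPM in the hybrid against 10.3 ± 0.994 in Ler NahG, and it was not called.

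Cell-surface immunity genes of the pattern-triggered list rose in 9 of 12 cases and fell in 0. SOBIR1, the partner kinase of receptor-like proteins, was at 71.7, 55.3 and 46.8 CPM against 8.78, 9.71 and 10.0, a difference of 2.61 ± 0.26 (adjusted p = 2.6e-05). CERK1, the chitin receptor kinase, was at 47.2, 40.1 and 38.8 CPM against 23.6, 23.9 and 21.7, a difference of 0.87 ± 0.09 (adjusted p = 4.7e-05). FRK1 and NHL10, which mark an active response to microbial patterns, were not called, at 0.540 and 0.0163 CPM in the hybrid against 0.678 and 0.182. In the list of endoplasmic reticulum chaperones 2 of 12 rose and 1 fell, near the 13.4% and 12.8% of all genes tested. CRT3, a calreticulin needed to fold immune receptors, rose from 51.4, 51.8 and 54.0 CPM to 130, 110 and 108, a difference of 1.15 ± 0.10 (adjusted p = 8e-06), and the disulfide isomerase PDIL1-1 fell by 0.33 ± 0.08 (adjusted p = 0.0096). Those chaperone counts became 1 and 2 without Ler NahG replicate 3 or C24 x Ler replicate 3, and 4 and 2 without Ler replicate 1; 2 fell without Ler replicate 2 or 3 as well.

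**Figure D3:**
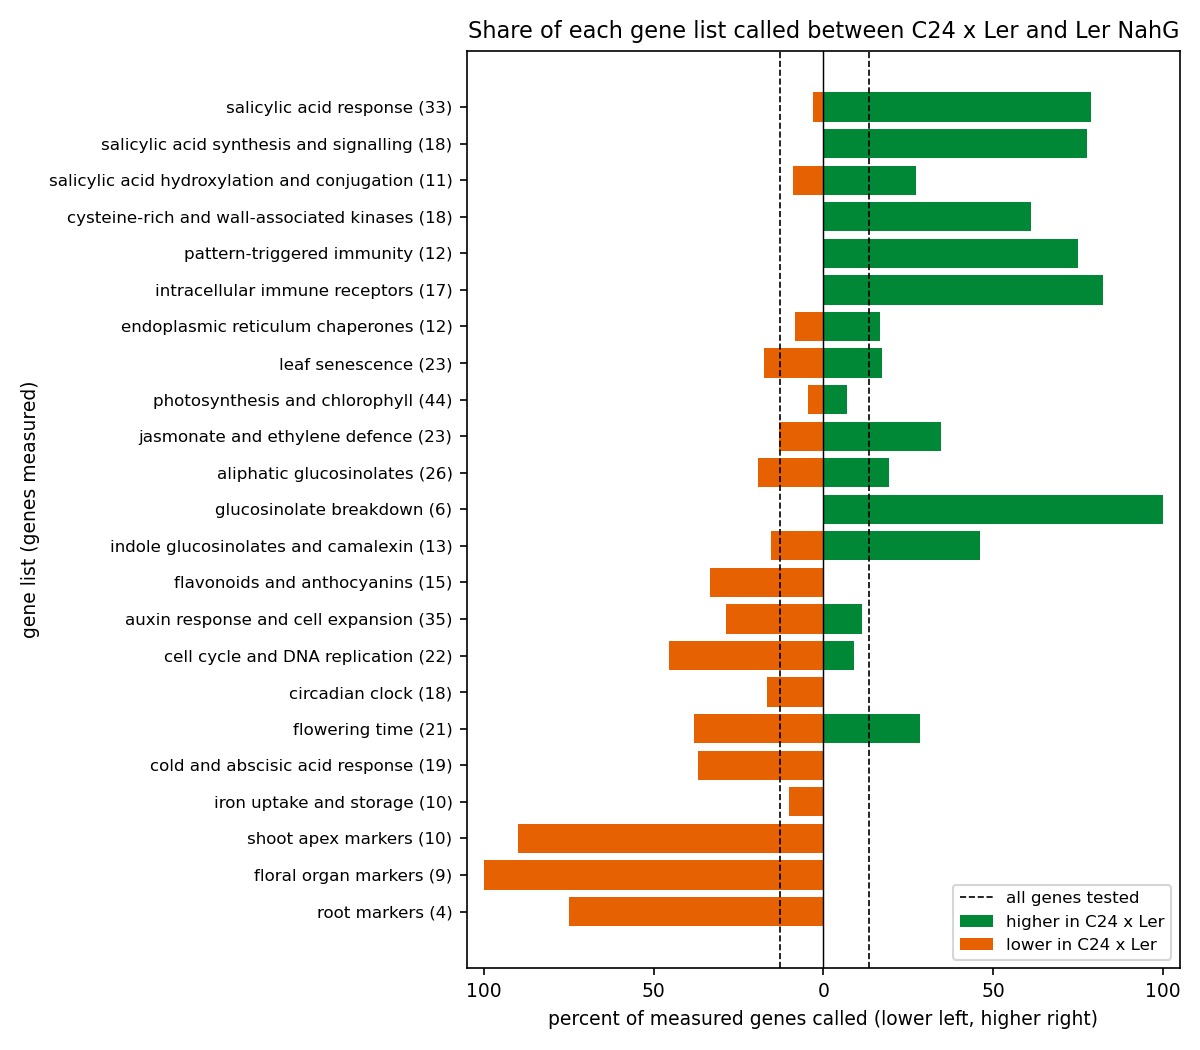
Percent of the measured genes of each of 23 lists that were called higher (green, right) or lower (orange, left) in C24 x Ler than in Ler NahG; dashed lines give the share of all genes tested, 13.4% higher and 12.8% lower, and numbers in brackets are genes measured. Defence lists extend to the right, and the shoot apex, floral, root, cold and flavonoid lists to the left.

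Leaf senescence genes did not move as a group. Of 23 measured, 4 were higher, 4 lower and 15 not called, with a median of -0.44. Of all genes tested 13.4% were higher and 12.8% lower. SAG12, a cysteine protease of late senescence, had 0 reads in all 3 hybrid libraries, which allows up to 0.0489 CPM over the group, and 5 reads in Ler NahG, all in replicate 1, and it was too low to test. SAG13 was at 1.84, 1.85 and 1.41 CPM in the hybrid and 2.80, 1.65 and 2.66 in Ler NahG, with a difference of -0.49 ± 0.58 (adjusted p = 0.58), and the groups overlapped. C24 held 80.2 ± 15.4 CPM of SAG13. NAC016, a transcription factor that promotes senescence, was higher in the hybrid, at 6.33, 4.73 and 7.19 CPM against 0.577, 0.596 and 0.422, a difference of 3.51 ± 0.21 (adjusted p = 5e-07). AT2G44290 also rose, from 7.29, 8.98 and 5.53 CPM to 25.1, 18.7 and 21.6 (1.59 ± 0.23, adjusted p = 0.00037). The senescence regulator NAP fell by 1.67 ± 0.32 and the sugar exporter SWEET15 by 3.83 ± 0.64 (adjusted p = 0.0029 and 0.0011), the latter by 3.05 without Ler NahG replicate 2.

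Photosynthesis genes were largely not called. Of 44 measured 3 were higher and 2 lower, below the 13.4% and 12.8% of all genes, with a median of 0.24. All 5 calls were lost without at least 1 of the libraries. RBCS1B, a small subunit of Rubisco, was at 3195, 2942 and 2826 CPM in the hybrid and 1640, 1943 and 1531 in Ler NahG, a difference of 0.81 ± 0.21 (adjusted p = 0.016). LHCB1.4, a light-harvesting protein, was at 1495, 1285 and 1745 CPM against 2157, 3102 and 2011, a difference of -0.68 ± 0.20 (adjusted p = 0.026). RBCS1B reached adjusted p = 0.054, 0.059 and 0.06 without Ler NahG replicate 1, Ler NahG replicate 3 or C24 x Ler replicate 1, and LHCB1.4 reached 0.082, 0.081 and 0.099 without Ler NahG replicate 2, C24 x Ler replicate 1 or C24 x Ler replicate 2. The number of photosynthesis genes higher ranged from 0 without Ler NahG replicate 1, Ler NahG replicate 3 or C24 x Ler replicate 1 to 12 without Ler replicate 1, and 0 were lower without Ler NahG replicate 2 or C24 x Ler replicate 1 or 2. Higher were 1 without C24 replicate 1, C24 replicate 2 or C24 x Ler replicate 2 and 5 without Ler NahG replicate 2, and lower was 1 without C24 replicate 1, C24 replicate 3, Ler replicate 2 or Ler NahG replicate 3. Summed CPM of 5 leaf markers were 39660 to 43000 in the hybrid and 28560 to 38260 in Ler NahG.

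Among 23 measured genes of jasmonate and ethylene defence 8 rose, 3 fell and 12 were not called. Of all genes tested 13.4% were higher and 12.8% lower, so the share that fell was near that of all genes. Rises numbered 5 without C24 x Ler replicate 1. The rises held LOX2, AOS, AOC1, AOC2 and OPR3 of synthesis and ORA59, PR4 and TAT3, and the falls were VSP1, VSP2 and THI2.1. LOX2 was not called without Ler NahG replicate 1 or 3 or C24 x Ler replicate 1 (adjusted p = 0.077, 0.075 and 0.078), nor OPR3 without C24 x Ler replicate 1 (0.074). ORA59 was not called without Ler NahG replicate 2 or 3 (0.073 each) or C24 x Ler replicate 1 or 2 (0.1 and 0.066). AOC2 and AOC1, close copies of allene oxide cyclase in jasmonate synthesis, were higher by 1.32 ± 0.24 and 1.58 ± 0.28 (adjusted p = 0.0018 and 0.0017). AOC2 was at 1081, 1012 and 774 CPM in the hybrid, 408, 449 and 294 in Ler NahG and 598 ± 55.5 in C24. The jasmonate-induced storage protein VSP1 was at 66.5, 74.9 and 82.6 CPM against 487, 478 and 522, a difference of -2.73 ± 0.11 (adjusted p = 2.2e-08). Ler held 592 ± 29.9 CPM of VSP1 and C24 27.5 ± 2.97. THI2.1, a thionin, was at 0.153, 0.0488 and 0.0470 CPM against 4.24, 2.06 and 5.83, a difference of -5.55 ± 0.80 (adjusted p = 0.00041), or -6.25 without C24 x Ler replicate 1.

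Among glucosinolate genes, AOP2 was high in C24 and the hybrid and low in both Ler groups. AOP2, which makes alkenyl glucosinolates, was at 1145, 1049 and 1167 CPM in the hybrid and 4.82, 5.18 and 5.03 in Ler NahG, a difference of 7.80 ± 0.14 (adjusted p = 3.7e-11). Its neighbour AOP3, which makes hydroxypropyl glucosinolates, was at 579, 465 and 559 CPM against 754, 766 and 712, a difference of -0.48 ± 0.10 (adjusted p = 0.0059). C24 had AOP2 at 1887 ± 119 and AOP3 at 0.691 ± 0.115, Ler 5.53 ± 0.669 and 704 ± 34.4, and the hybrid had reads of both. The 2 genes are close copies, so some reads may be shared. AT2G25450 rose from 1.73, 1.88 and 1.31 CPM to 14.7, 16.2 and 14.6 (3.21 ± 0.17, adjusted p = 2e-07). Of the 26 aliphatic glucosinolate genes 5 were higher and 5 lower, and leaving out single libraries gave 3 higher without C24 replicate 3, Ler NahG replicate 1, Ler NahG replicate 3 or C24 x Ler replicate 3 and 8 without Ler replicate 1. Lower were 1 without C24 x Ler replicate 2, 2 without C24 x Ler replicate 1, and 3 without any 1 C24 library or Ler NahG replicate 1 or 3.

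All 6 genes of the glucosinolate breakdown list were called higher in the hybrid. Of these, ESP was not called without Ler NahG replicate 3 or C24 x Ler replicate 2 (adjusted p = 0.061 and 0.057), nor ESM1 without Ler NahG replicate 1 or 3 or C24 x Ler replicate 1 (0.054, 0.071 and 0.065). The myrosinase TGG2 was at 1665, 1792 and 1688 CPM against 7.62, 9.99 and 7.73, a difference of 7.67 ± 0.17 (adjusted p = 1.7e-10). TGG1, the other leaf myrosinase, was at 5216, 6041 and 4889 CPM against 1834, 2388 and 1606, a difference of 1.47 ± 0.18 (adjusted p = 0.00013). TGG2 was as low in Ler, at 10.2 ± 1.49, and C24 had 2888 ± 99.3. Of 13 genes for indole glucosinolates and camalexin 6 rose and 2 fell; 0 fell without Ler NahG replicate 2, Ler NahG replicate 3 or C24 x Ler replicate 1, and 1 fell without C24 replicate 1, 2 or 3, Ler replicate 3, Ler NahG replicate 1 or C24 x Ler replicate 2 or 3. MYB51, an activator of indole glucosinolate synthesis, was at 11.4, 8.04 and 10.7 CPM against 2.60, 2.89 and 2.41, and the enzyme CYP83B1 at 216, 151 and 199 against 99.4, 103 and 80.2. Their differences were 1.93 ± 0.22 and 1.00 ± 0.16 (adjusted p = 7.6e-05 and 0.00072), and both were salicylate-dependent.

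The comparison of C24 with Ler shares no library with that of the hybrid with Ler NahG, although both take their spread from 1 fit. Of the 2724 genes higher in the hybrid 2138 were also higher in C24 than in Ler, 78.5% of the former and 46.5% of the 4602 genes higher in C24. Of the 2607 lower genes 1649 were lower in C24, 63.3% of the former and 40.9% of 4027. Among all genes tested 22.6% were higher and 19.8% lower in C24. Opposite calls numbered 30 and 90, and 556 and 868 genes had no call between the accessions. Over genes, which are not independent of each other, the 2 differences had a Pearson r of 0.743 as a description.

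**Figure D4:**
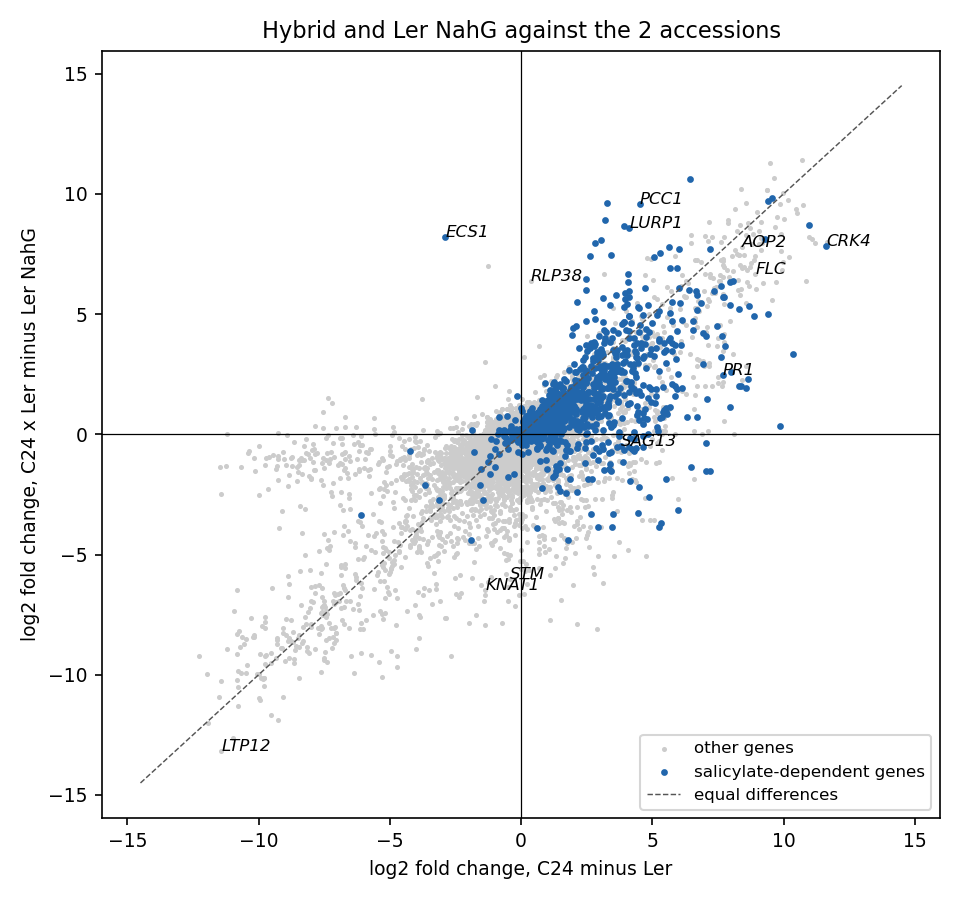
Log2 fold change of C24 x Ler minus Ler NahG (vertical axis) against that of C24 minus Ler (horizontal axis) for each gene tested, with salicylate-dependent genes in blue and equal differences on the dashed line. PCC1 and LURP1 lie above the line, PR1 and SAG13 below it, ECS1 in the upper left, and STM and KNAT1 below 0 near the middle.

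By the fitted log2 difference, the largest fall of a gene with a symbol was that of LTP12. LTP12 and A7, lipid-transfer proteins of the tapetum, the layer that nourishes pollen, had 0 reads in the hybrid. In Ler NahG LTP12 stood at 76.0, 42.0 and 28.7 CPM and A7 at 35.2, 41.6 and 23.8, at least 1010-fold and 681-fold higher against the floor of 3 reads over the hybrid group (adjusted p = 0.0026 and 6.3e-05). C24 was also near 0, at 0.0142 and 0.0131 CPM, and Ler at 50.4 ± 46.1 and 37.3 ± 28.9. GRP17 and GRP16, pollen-coat oleosins, and EXL4 and EXL6, pollen-coat lipases, were also high in Ler NahG. GRP17 was at 0.153, 0.146 and 0.0470 CPM in the hybrid and at 122, 302 and 7.68 in Ler NahG (-10.23 ± 1.58, adjusted p = 0.00066). Replicate 3 of Ler NahG was the lowest of its group for GRP17, GRP16, EXL4, EXL6, ATA1, ATA27, SHT, sks14, DD46 and CYP705A24. Without Ler NahG replicate 2 the differences were -9.09 for GRP17, -10.12 for GRP16, -10.37 for ATA1, -8.96 for DD46 and -9.49 for CYP705A24, and EXL4 was at -13.75 without C24 x Ler replicate 3. The call of SHT, which makes spermidine conjugates in the tapetum (457 reads against 0, adjusted p = 0.028), was lost without any 1 of 5 libraries, with adjusted p = 0.063 and 0.051 without Ler NahG replicates 1 and 2 and 0.072, 0.069 and 0.061 without C24 x Ler replicates 1, 2 and 3.

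**Figure D5:**
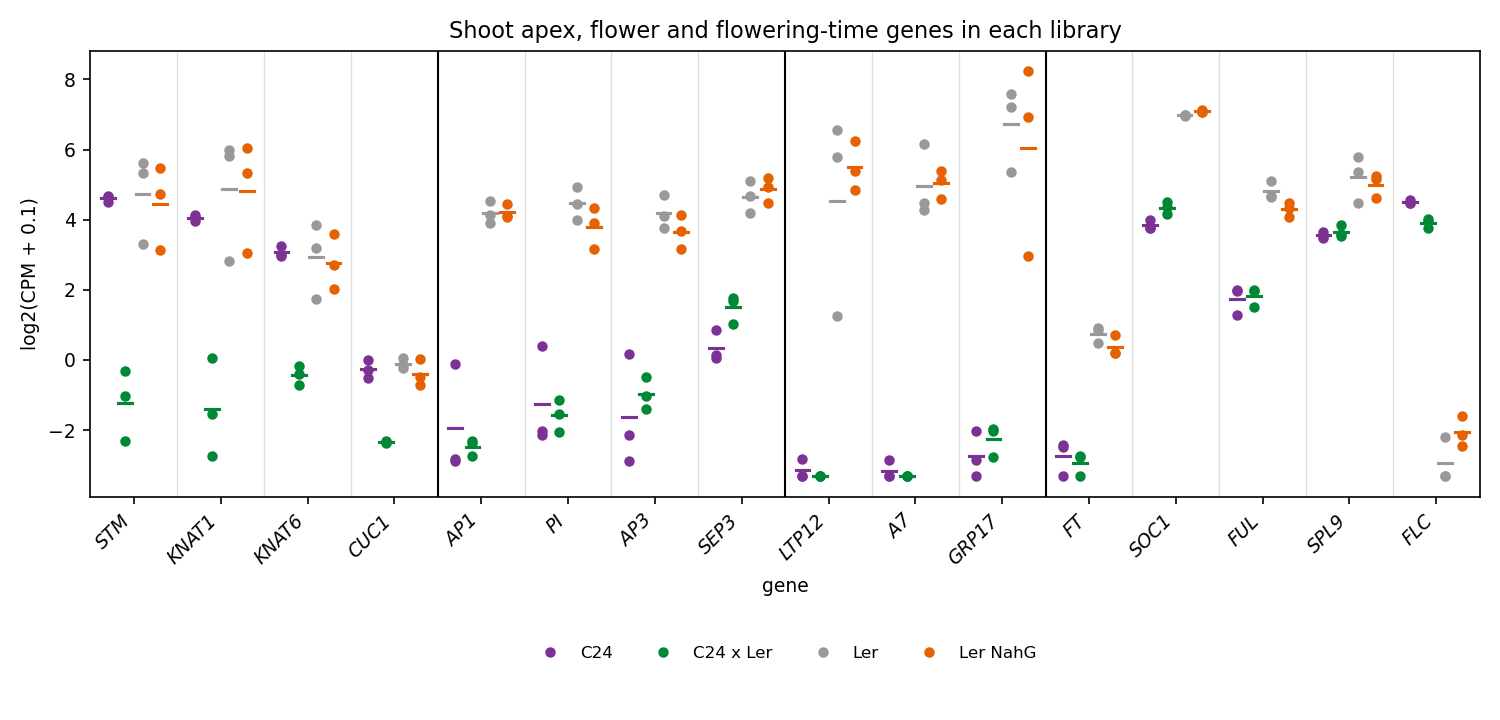
Level of 16 genes as log2(CPM + 0.1) in each library of C24, C24 x Ler, Ler and Ler NahG; points are libraries and bars are the means of the 3 plotted values, with shoot apex, floral organ, anther and flowering-time genes from left to right. The floral and anther genes plotted are lower in each library of C24 and the hybrid than in each of Ler and Ler NahG, while for the apex genes STM, KNAT1, KNAT6 and CUC1 all hybrid libraries lie below those of the other 3 groups.

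Floral organ identity genes were lower in the hybrid for each of the 9 measured, with a median of -5.09. AP1, which specifies floral meristems and sepals, was at 0.102, 0.0488 and 0.0940 CPM in the hybrid and 16.9, 21.9 and 17.0 in Ler NahG, a difference of -7.74 ± 0.67 (adjusted p = 7.7e-06). SEP2, a cofactor of floral organ identity, was at 0.306, 0.195 and 0.188 CPM against 11.2, 14.8 and 8.66, a difference of -5.63 ± 0.49 (adjusted p = 8.1e-06). Summed over the 11 floral markers the hybrid libraries held 6.08 to 7.46 CPM and those of Ler NahG 86.2 to 135, with LFY and CAL at 0 reads in the hybrid. C24 held 3.58 to 8.93 and Ler 100 to 164. In whole rosettes, fewer cells of a type and less RNA per cell cannot be told apart, and the part of flower buds in the other differences was not tested.

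Shoot apex markers were lower for 9 of the 10 measured, with a median of -3.12. STM, a homeobox gene that keeps the meristem undifferentiated, was at 0.102, 0.390 and 0.705 CPM in the hybrid and 26.4, 8.61 and 44.1 in Ler NahG. Its difference was -6.00 ± 0.87 (adjusted p = 0.0004), or -5.41 without Ler NahG replicate 3 and -6.70 without C24 x Ler replicate 3. CUC1, which sets organ boundaries, was at 0.102, 0.0975 and 0.0940 CPM against 0.618, 0.916 and 0.507, a difference of -2.73 ± 0.40 (adjusted p = 0.00043). KNAT1, a related homeobox gene, was at 0.0511, 0.244 and 0.940 CPM against 40.5, 8.16 and 65.8, a difference of -6.48 ± 1.12 (adjusted p = 0.0014), or -5.84 without Ler NahG replicate 3 and -7.95 without C24 x Ler replicate 3. Unlike the floral genes, STM was not low in C24, at 24.3 ± 1.43 CPM, nor in Ler, at 32.8 ± 20.4. CLV1, a receptor kinase, was the member not called, at -0.10. The summed level of the 11 markers was 42.3 to 55.4 CPM in the hybrid and 85.3 to 184 in Ler NahG, with CLV3 at 0 reads in Ler NahG. C24 held 91.9 to 104 and Ler 77.9 to 185. STM and KNAT1, at most 0.705 and 0.940 CPM in the hybrid, were a small part of its sum. Of 4 measured root markers 3 were lower, but the summed root level was at most 3.91 CPM in any of the 6 libraries, and 0 were lower without Ler NahG replicate 1, C24 x Ler replicate 1 or C24 x Ler replicate 2, and 1 without C24 replicate 1, Ler NahG replicate 2 or 3 or C24 x Ler replicate 3. Their COBL9 (0 reads against 71, adjusted p = 0.033) and PIN2 (5 reads against 28, adjusted p = 0.037) reached 0.08 and 0.081 without Ler NahG replicate 1. COBL9 was also lost without Ler NahG replicate 2 (0.064) or C24 x Ler replicates 1, 2 or 3 (0.078, 0.074 and 0.065). PIN2 was also lost without C24 replicate 1 (0.052), Ler NahG replicate 2 or 3 (0.054 and 0.085) or C24 x Ler replicate 1 or 2 (0.11 and 0.085).

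Of 21 measured flowering-time genes 6 were higher and 8 lower in the hybrid. Higher were the repressors FLC, SVP, TEM2 and TOE1 with FRI and MAF4, and lower were the promoters FT, SOC1, FUL, FD, SPL4, SPL5 and SPL9 with the repressor MAF2. Of these, MAF4 was not called without Ler NahG replicate 1 or 3 (adjusted p = 0.1 and 0.07) or C24 x Ler replicate 1, 2 or 3 (0.07, 0.068 and 0.061). TEM2 was not called without Ler NahG replicate 1 or 2 (0.069 and 0.063) or C24 x Ler replicate 1 or 2 (0.087 and 0.078), nor FD without Ler NahG replicate 3 (0.077) or C24 x Ler replicate 1 or 2 (0.059 and 0.063). FLC, the main repressor of flowering in unvernalised plants, was at 15.4, 16.0 and 13.5 CPM in the hybrid and 0.0824, 0.229 and 0.127 in Ler NahG, a difference of 6.65 ± 0.33 (adjusted p = 9.8e-08). FRI, which promotes FLC expression, and SVP, another repressor, were higher by 1.55 ± 0.21 and 0.39 ± 0.08 (adjusted p = 0.00025 and 0.0035). SOC1, a floral promoter that FLC represses, was at 17.8, 20.5 and 22.6 CPM against 136, 139 and 134, a difference of -2.74 ± 0.10 (adjusted p = 8.1e-09). SOC1 was among the 38 salicylate-dependent genes that were lower in the hybrid. FT, the mobile flowering signal, had 2 reads against 85, a ratio of 37.4 in favour of Ler NahG (95% exact counting interval 10.0 to 314). Ler was at 0.0397 CPM for FLC and 126 ± 1.32 for SOC1, and C24 at 22.6 ± 0.792 and 14.2 ± 1.3.

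Of 22 cell cycle genes 2 rose and 10 fell, with a median of -0.45, and 3 fell without Ler NahG replicate 3 or C24 x Ler replicate 1. The mitotic cyclin CYCB1;2 was at 11, 16.7 and 14.7 CPM against 27.1, 22.5 and 30.8 (-0.92 ± 0.17, adjusted p = 0.0024), and TSO2, a ribonucleotide reductase subunit, at 93.4, 107 and 97.7 against 84.1, 71.7 and 71.9 (0.39 ± 0.09, adjusted p = 0.0078). The shoot apex marker sums given above moved with these genes, and their part was not tested. Among 35 genes of auxin response and cell expansion 4 rose, 10 fell and 21 were not called, with a median of 0.04 and 6 falls without C24 x Ler replicate 1. GH3.5 and GH3.3, which conjugate auxin to amino acids, were at 1.79, 2.24 and 2.26 CPM against 10.8, 18.1 and 25.3 and at 1.48, 1.66 and 1.88 against 7.54, 7.38 and 11.4. Their differences were -3.10 ± 0.37 and -2.39 ± 0.24 (adjusted p = 0.0001 and 2.3e-05), and the hybrid was below C24 too, by 3.36 and 2.42. PIF4, a transcription factor of shade and warmth growth, was at 82.8, 74.2 and 114 CPM against 86.0, 85.6 and 91.3, with overlapping groups (adjusted p = 0.86), and YUC8, an auxin synthesis gene, was too low to test, with 12 reads against 15.

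Of 19 cold and abscisic acid genes 7 fell and 0 rose, among them RD29A, a stress-response marker, at 95.2, 102 and 151 CPM against 264, 394 and 235 (-1.35 ± 0.22, adjusted p = 0.0011), and GOLS3, a galactinol synthase, at 6 reads against 91 (-3.68 ± 0.58, adjusted p = 0.00071, or -4.58 without C24 x Ler replicate 3). C24 held RD29A at 17.2 ± 2.41 CPM, below the hybrid. Of 15 flavonoid genes 5 fell and 0 rose, or 3 without Ler NahG replicate 1 or C24 x Ler replicate 1. F3'H was at 1.07, 1.07 and 1.65 CPM against 6.96, 10.8 and 6.92, and FLS1, flavonol synthase, at 8.27, 11.9 and 10.6 against 26.2, 37.2 and 23.5, with differences of -2.69 ± 0.29 and -1.49 ± 0.21 (adjusted p = 4.6e-05 and 0.0003). In the iron list 1 of 10 measured genes was lower and 0 higher, a share below the 12.8% of all genes. This was FRO2, a ferric chelate reductase, at 22 reads against 85 (-1.75 ± 0.36, adjusted p = 0.0039).

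Among clock genes 0 of 18 were higher and 3 lower, against 13.4% and 12.8% of all genes tested. The share that was lower was thus near that of all genes. CCA1, a morning oscillator gene, was at 1.63, 1.75 and 2.30 CPM against 3.09, 4.35 and 2.91 (-0.86 ± 0.26, adjusted p = 0.033), and LNK2, a coactivator of evening genes, at 18.8, 13.9 and 28.5 against 28.9, 43.0 and 29.4 (-0.73 ± 0.23, adjusted p = 0.037). The 0 and 3 became 1 and 0 without Ler NahG replicate 2, where CCA1 had an adjusted p of 0.1 and LNK2 of 0.12, and 0 fell without C24 x Ler replicate 1 (0.12 for each) or 2 (0.098 and 0.12). Without C24 replicate 1 LNK2 had 0.054, and 1 gene fell. Higher were 2 clock genes without Ler replicate 1 and 1 without C24 x Ler replicate 3. The hour of harvest is not given in the labels.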

How the data were processed

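RNA from pools of rosettes was sequenced with an Illumina TruSeq kit, per the labels' protocols. The deposited table holds counts of reads per gene that the authors made, and its columns were matched to samples by their titles. Per the submitters' processing notes the tools were STAR 2.5.3 and DESeq2 and the build TAIR10; their settings, strand handling and annotation are not given in the sources used here. Reads from C24 and Ler alleles were placed on a reference of another accession, so diverged or missing genes read low, and close copies or overlapping genes are uncertain. Of 37336 gene rows, 99.2% matched RefSeq identifiers. The 5 rows that name no gene stayed out of tests and library sizes; in the 6 compared libraries unmapped reads were 2.76 to 3.67%, multimapping 1.60 to 1.85%, reads in no feature 0.256 to 0.357% and ambiguous reads 4.38 to 4.85% of all reads.

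Counts of all 12 first-stage libraries were fitted with edgeR 4.0.16 (R 4.3.3; TMM scaling, filterByExpr by group, quasi-likelihood test, Benjamini-Hochberg adjustment), and C24 x Ler was compared with Ler NahG. TMM factors were 0.867 to 0.924 in the hybrid and 0.964 to 1.05 in Ler NahG. The 6 later libraries were fitted apart to define salicylate dependence. Fitted log2 fold changes used edgeR's default prior count, a small count added to each library before the fold change is taken. A prior count of 2 was used for log2 CPM in the check of replicate numbers. Where a group had 0 reads, the size of the fitted log2 fold change depends on the prior count. Intervals and the floor of 3 reads over a group cover counting error only; 3 reads in 1 library were 0.124 to 0.153 CPM. Fits were tested on simulated data with 20006 genes. The calls recovered 66% of 100 genes changed 2-fold and 84% of 100 changed 4-fold, with 5 false calls. A gene that was not called may therefore still differ. Alternatives were DESeq2 1.42.0, RLE scaling, no filter, the 6 libraries alone, a replicate block, a fold threshold, other definitions of salicylate dependence and each library left out. The omissions of C24 and Ler libraries were added after seeing the data, except for the comparison with C24 minus Ler.

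The members and the 23 gene lists were chosen with earlier results of these data known. Genes were named by a rule: the 12 largest rises and falls among called genes with a symbol, mean log2 CPM of at least 1 and groups that did not overlap, the 10 largest salicylate-dependent rises, from every list the 2 called members of smallest adjusted p, and throughout STM, FLC, YUC8, PIF4, SAG13, SAG12, ICS1, PR5, PR2 and PR1. Other named genes, among them WRKY70, SARD1, NIMIN2, AED1, MLO12, FMO1, SNC1, RPM1, FRK1, NHL10, BSMT1, NAP, SWEET15, AOC2, AOP3, KNAT1, FT and FRI, were chosen after their values were seen. A gene that the rule names and a promoter window are not reported here.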

Additional observations from a re-analysis of the deposited data

How the results depend on the processing

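The count of genes that differed was 5938 with DESeq2, 5266 with RLE scaling, 5136 with no filter and 4229 from the 6 libraries alone. Leaving out 1 library gave 3511 to 6398 calls, 1893 to 3308 higher and 1618 to 3090 lower. A log2 fold change of at least 1 left 2580 calls, 1052 higher and 1528 lower. Replicate numbers did not pair the libraries, since same-numbered deviations correlated at 0.0303, -0.165 and -0.0825; the fit with the replicate block gave 5201 calls, of which 858 were salicylate-dependent. Salicylate-dependent calls over all libraries left out, the later ones included, ran from 430 to 1134, higher from 421 to 1088 and lower from 5 to 85; where a later group was left with 1 library, it was assumed to vary like the others. Defined by 1 contrast of both NahG lines together, 1176 were called, 1094 higher and 82 lower. Requiring a fall of at least 1 on the log2 scale gave 596, 564 and 32, and the salicylic acid response list alone 27, 26 and 1. Calls in the same direction as C24 minus Ler numbered 3787, and 2825 to 4406 with 1 library left out. Of the 70 genes that the naming rule gave and that were tested, 60 kept their call or lack of one in every setting in which they were tested, and CCA1, COBL9, ICS1, LHCB1.4, LNK2, PIN2, PR1, PR5, RBCS1B and SHT lost it in some; 0 changed sign while called. Among genes named outside that rule ESM1, ESP, FD, LOX2, MAF4, OPR3, ORA59 and TEM2 also lost their call without single libraries. The count of list members moved by over 1.5 times in 79 values and stayed within that bound in 703. At 3 libraries a group, differences of genes near the floor of 3 reads are set by few reads.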

Other observations

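RLP38, a receptor-like protein, was chosen after its values were seen. It was at 13.1, 9.56 and 14.0 CPM in C24 x Ler and at 0.165, 0.138 and 0.127 in Ler NahG, a log2 difference of 6.36 ± 0.31 (edgeR adjusted p = 8.9e-08). C24 and Ler lay between them, at 3.35 ± 0.739 and 2.59 ± 0.562 CPM (SD, n = 3), and were not called different (adjusted p = 0.19). All 3 hybrid libraries were thus above those of both parental accessions.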
